A study of Mus musculus with 12 samples.

Results

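Retained-intron isoforms were a small and variable part of the RNA of mouse mast cells. They were selected on their annotated type and their level: an isoform typed retained_intron entered when 3 or more of the 12 libraries had it at 1 FPKM or higher, where FPKM is the number of fragments scaled by isoform length and by library depth. This left 6918 of the 18932 isoforms of that type, and of 84846 isoforms of every type, in 3669 of 28852 genes. For each, the share of its gene's summed FPKM was computed in every library, in percent. The FPKM that chose the isoforms is given as a description, while the difference of the share between treatments played no part in the choice. At 1 FPKM or more in all 12 libraries were 1679 of them, in exactly 3 libraries 790, and 14 entered through the 3 libraries of 1 group alone.

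The libraries came from bone marrow-derived mast cells (BMMCs) of BALB/c mice, cultured with IL-3 and SCF. Each of 4 groups had 3 libraries: the blank group, the SiO2 group (nano-sized silica), the DNP-HSA group (the hapten-carrier antigen recognised by IgE against DNP) and the DNP-HSA+SiO2 group (both). The sources used here give no dose or time for the sequenced cells, do not say whether they had been loaded with IgE, and do not say whether the libraries of a group came from separate cultures, so that the spread behind each p-value, that of these libraries, may be technical. Values are listed in the order unnumbered, 1 and 2, because 1 library of each group carries no number.

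A retained intron is one that stays in an otherwise spliced and polyadenylated RNA. Such RNAs are often held in the nucleus, spliced later or degraded by nonsense-mediated decay, and few make the full protein. Short introns with weak splice sites are known to be kept more often, and the genes of splicing factors themselves are well-known examples. In short reads, a retained intron, an unfinished precursor and genomic DNA give fragments at the same place, and isoforms that differ by a few bases are told apart by few fragments.

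The structure of 6888 isoforms was read from GENCODE M21 (GRCm38), where start, end and length were the same. Of these, 2675 held at least 1 whole intron of a protein-coding isoform of their gene inside an exon: 1939 held 1, 491 held 2 and 245 held 3 or more. Another 4140 had a coding isoform listed and held none of its introns whole, and 4081 of those began or ended inside one. Retained-intron isoforms were short, with a median of 882 bases and 3 exons against 2460 bases and 8 exons for protein-coding isoforms that met the same FPKM minimum. Against the most similar isoform of the gene, a median of 306 bases were their own, and under 100 bases for 1196 isoforms (17.4%).

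The whole introns they held were short. The 3451 distinct introns had a median of 235 bases (quartiles 104 and 558), and the 48984 other introns of coding isoforms of the same genes 1130 bases (quartiles 375 and 2810). Under 300 bases were 58.1% of the first and 21.6% of the second. The annotation set the type, not these libraries, and no test was made. Where held introns of an isoform overlapped, only the shortest was kept, while the other introns include all alternatives. A held intron must also fit inside an exon of a mostly short isoform. The choice thus favors short introns among those held, and how much of the difference this makes was not tested. GT and AG flanked 98.2% of the held introns, GC and AG 40 of them, and AT and AC 4. Between coding exons lay 95.5%, and the median GC content was 51.8%.

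**Figure D1:**
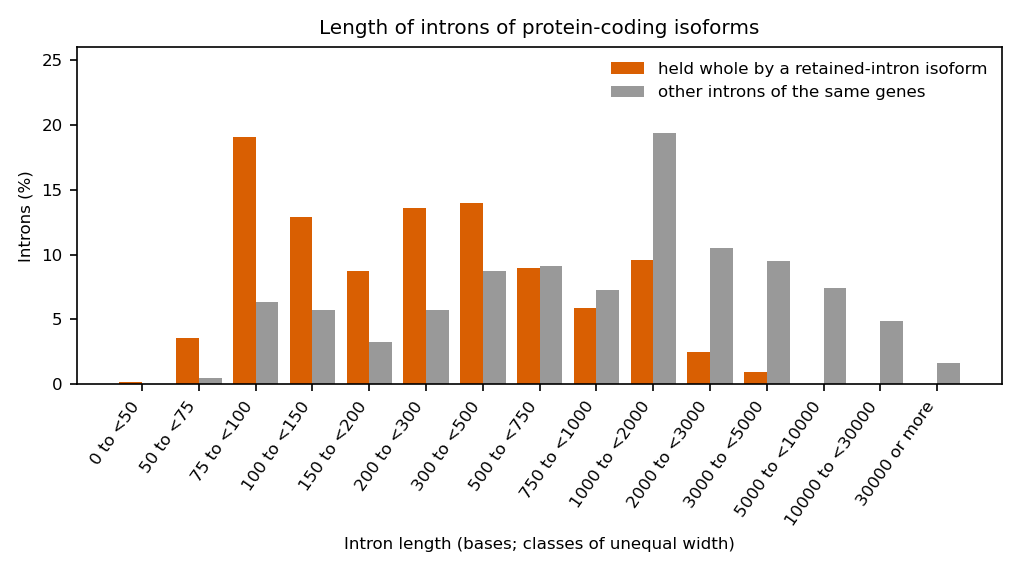
Percent of introns (vertical axis) in classes of intron length in bases, of unequal width (horizontal axis), for the 3451 introns held whole by a retained-intron isoform and the 48984 other introns of coding isoforms of the same genes. Between 75 and 100 bases lay 19.1% of the held introns and 6.33% of the others, and between 1000 and 2000 bases 9.56% and 19.4%.

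The 6 introns printed here belong to isoforms that the results turn on. Pxn, Tnfaip2 and Apeh had some of the widest differences between groups. Lat2, an adaptor of IgE receptor signaling, and Ndst2, an enzyme of heparin synthesis, had shares that differed by library, and Clk1 is a kinase of splicing factors. Each is the annotated intron on the strand of its gene, 5′ to 3′, from GENCODE M21 transcripts (GRCm38), with the splice site bases at both ends in capitals.
Pxn, chr5:115545509-115545603, plus strand: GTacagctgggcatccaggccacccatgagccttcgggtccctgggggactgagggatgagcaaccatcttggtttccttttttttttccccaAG
Tnfaip2, chr12:111448370-111448487, plus strand: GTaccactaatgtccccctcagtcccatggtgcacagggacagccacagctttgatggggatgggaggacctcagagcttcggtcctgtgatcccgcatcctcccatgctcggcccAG
Apeh, chr9:108092414-108092553, minus strand: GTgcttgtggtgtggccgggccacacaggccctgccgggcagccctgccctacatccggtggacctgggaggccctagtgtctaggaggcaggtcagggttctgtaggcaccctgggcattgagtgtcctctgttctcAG
Lat2, chr5:134606094-134606360, minus strand: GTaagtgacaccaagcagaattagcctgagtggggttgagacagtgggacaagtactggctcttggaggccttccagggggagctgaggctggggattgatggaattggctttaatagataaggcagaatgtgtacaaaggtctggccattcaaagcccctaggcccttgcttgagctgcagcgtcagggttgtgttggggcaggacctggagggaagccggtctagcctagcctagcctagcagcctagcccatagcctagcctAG
Ndst2, chr14:20728262-20728450, minus strand: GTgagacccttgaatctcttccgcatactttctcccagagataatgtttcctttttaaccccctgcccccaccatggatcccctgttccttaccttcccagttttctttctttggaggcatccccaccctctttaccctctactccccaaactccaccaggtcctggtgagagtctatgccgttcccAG
Clk1, chr1:58417180-58417266, minus strand: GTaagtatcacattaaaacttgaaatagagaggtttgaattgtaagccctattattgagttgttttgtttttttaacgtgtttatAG
All 6 begin with GT and end with AG. The Pxn intron has 95 bases and is number 4 of 10 in a coding isoform, that of Tnfaip2 has 118 bases (5 of 11) and that of Apeh 140 (6 of 21). Those of Lat2, Ndst2 and Clk1 have 267, 189 and 87 bases (6 of 7, 5 of 14 and 6 of 12). The Clk1 intron had the lowest GC content of the 6, 27.6%, and the Apeh intron the highest, 65%.

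Most of these isoforms were minor products of their gene. Averaged over the 12 libraries, the median share was 7.63% (quartiles 3.91% and 14.7%). Under 5% were 2318 isoforms, 5% to 20% were 3507, 20% to 50% were 963, and 130 (1.88%) held 50% or more. Isoforms with a whole intron had a median of 8.81%, and those that held none whole 6.87%. The median level was 1.68 FPKM, in a gene at 24.9 FPKM.

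Some were the main RNA listed for their gene. Fam221b, N4bp2os and Tslp, the last an epithelial cytokine gene, held 99.998%, 99.7% and 99.3%, each with 1 other isoform listed. Mrpl53 (a mitochondrial ribosome protein) held 94.7%, Gbp9 (an interferon-induced GTPase) 92.7%, Pkp3 (a desmosome protein) 91.7% and Bbs10 (a chaperonin-like protein of the cilium) 91.7%, with the unnamed loci D430040D24Rik, Gm20427 and Gm20033 at 97.7%, 97% and 90.4%. Many of these genes were low, from a mean of 1.16 FPKM (N4bp2os) to 12.2 FPKM (Fam221b), with Gbp9 at 2.04, Mrpl53 at 2.09 and Tslp at 2.28. In a gene near 1 FPKM, only an isoform with a high share can meet the rule. N4bp2os and Mrpl53 were not tested, because the gene was under 0.5 FPKM in some library. Another 9 isoforms, Nphs1 and H2-Q1 among them, were the only isoform listed for their gene, which makes the share 100% by definition. The lowest mean shares were in very abundant RNAs of the translation machinery and the like: Tpt1 at 0.101%, Eef1a1 at 0.105%, Rpl41 at 0.109%, Rpl13a at 0.122% and Rps4x at 0.123%.

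The highest level was that of an isoform of Lilrb4a, an inhibitory receptor on mast cells, at 762 FPKM and a share of 49.2%, with other isoforms of the gene at 244 and 209.6 FPKM. Lilrb4a has a close paralog, and Rps26, Eef1a1 and Fth1 have processed pseudogenes, so that their values are uncertain. Rps26 ran from 13.4% to 99.8% across libraries. Cyp11a1, the enzyme that starts steroid synthesis, had an isoform at 259 FPKM and 6.43% to 26.1% of its gene.

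The isoform of Kit, the SCF receptor, had the second highest level, 355 FPKM, and a share that stayed within 25% to 31.3% in all 12 libraries. It begins inside an intron of a coding isoform, and 139 of its 842 bases lie outside coding exons. Its share was 27.3%, 30.6% and 31% in the blank group, 26.7%, 30.2% and 29.8% in the SiO2 group, 26.5%, 31.3% and 30.1% in the DNP-HSA group and 25%, 29.9% and 29.9% in the DNP-HSA+SiO2 group. The groups overlapped, and the unnumbered library was the lowest of each. The log2 odds of Kit in limma differed from blank by -0.05 ± 0.28 (SE) with SiO2 and -0.03 ± 0.28 with DNP-HSA.

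Libraries of the same group differed widely. All retained-intron isoforms together held 16.4%, 11% and 20.6% of the FPKM of their genes in the blank group and 16.2%, 10.8% and 19.8% in the SiO2 group. In the DNP-HSA group they held 15.5%, 18% and 9.59%, and in the DNP-HSA+SiO2 group 16.1%, 18.2% and 12.1%. One library of each group stood low, namely blank 1, SiO2 1, DNP-HSA 2 and DNP-HSA+SiO2 2, at 9.59% to 12.1%, against 15.5% to 20.6% in the other 8. The 4 groups overlapped.

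Many isoforms took part in this. Of the 6877 isoforms tested between groups, 1603 (23.3%) had their lowest share in that library in all 4 groups, against 8.66% of 27452 isoforms of every type and 2.26% of protein-coding isoforms. DNP-HSA 2 was the lowest of the 12 libraries for 1774 isoforms (25.8%), and blank 2 the highest for 1341 (19.5%). In the same genes, protein-coding isoforms held 83.2% to 86% in the 4 libraries and 72.6% to 78.9% in the other 8. Isoforms typed nonsense_mediated_decay held 2.29% to 2.43% and 2.85% to 3.18%, and processed transcripts 1.55% to 1.67% and 1.86% to 2.47%. Both of these types were thus also lower in the same 4 libraries, and all types are parts of the same total.

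Other values moved with these 4 libraries. Malat1 and Neat1, long RNAs kept in the nucleus, were at 52.1 to 95.7 and 91.9 to 127 FPKM there, against 213 to 490.3 and 138 to 339 in the other 8. S100a8, a neutrophil gene, was at 5.89 to 7.19 FPKM against 0 to 0.294, and Lyz2, a gene of macrophages and neutrophils, at 60.1 to 87.8 against 3.04 to 34. The part of these RNAs in the shares was not tested. All 10 mast cell markers were at 1 FPKM or more in at least 3 libraries and summed to 17461 to 27904 FPKM. The sums were 0.128 to 27.5 for 6 neutrophil markers (4 at that level), 13.9 to 102 for 5 macrophage markers (4), 121 to 167 for 3 basophil markers (3), 1.5 to 19.7 for 4 red cell and platelet markers (3) and 0.253 to 3.29 for the B and T cell markers Cd79a and Cd3e (1). Estimated counts totalled 55737606 to 76718065 per library, 3.61% to 6.94% of them in retained-intron isoforms.

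**Figure D2:**
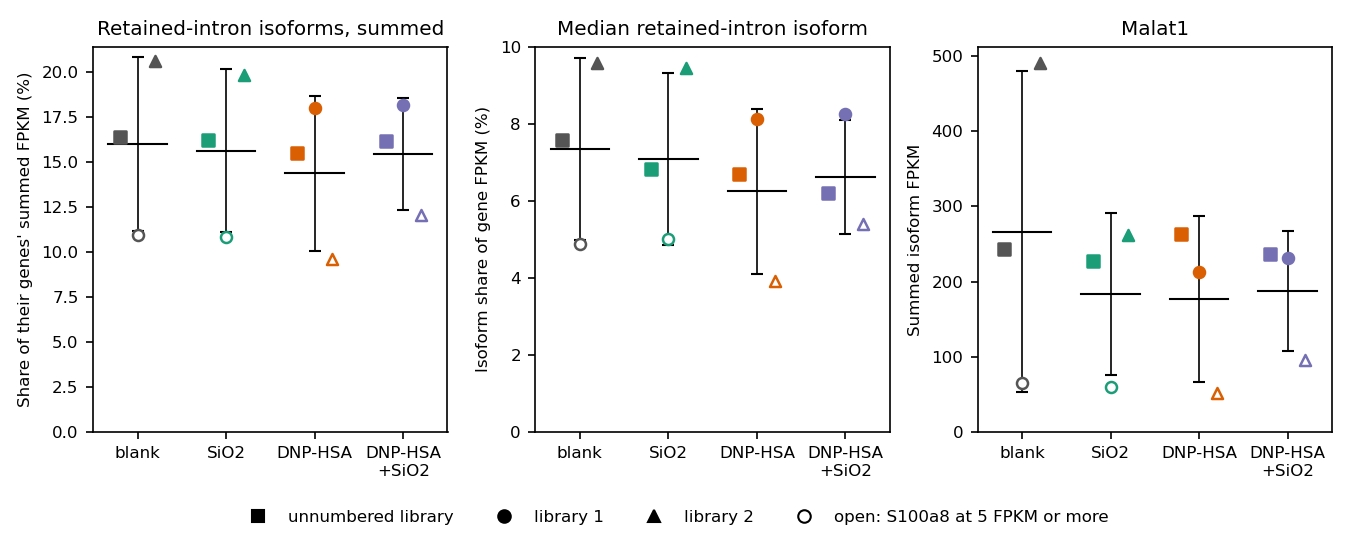
Summed share of all retained-intron isoforms in the FPKM of their genes (percent), share of the median isoform (percent) and Malat1 level (FPKM) by group, 1 point per library, with the group mean and SD (n = 3). The open points, 1 library of each group, lie at 9.59% to 12.1% for the summed share, below the 15.5% to 20.6% of the other 8.

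Between groups the summed share differed by less than this spread. It was 16% ± 4.84 (SD, n = 3) in the blank group, 15.6% ± 4.52 in the SiO2 group, 14.4% ± 4.32 in the DNP-HSA group and 15.5% ± 3.11 in the DNP-HSA+SiO2 group. Without the 4 low libraries the means were 18.5%, 18%, 16.7% and 17.2%, with 2 libraries each. Within like libraries, which were grouped from the data and not from labels, the share in DNP-HSA minus that in blank was -0.92 points (unnumbered), -1.37 points (the low ones) and -2.61 points (the remaining ones). For SiO2 minus blank it was -0.206, -0.121 and -0.78 points, for DNP-HSA+SiO2 minus blank -0.261, 1.1 and -2.44 points, and for DNP-HSA+SiO2 minus DNP-HSA 0.659, 2.47 and 0.168 points. The median difference over isoforms was -0.358, -0.349 and -0.666 points for DNP-HSA minus blank, -0.292, 0.0863 and -0.0255 for SiO2 minus blank, -0.607, 0.28 and -0.658 for DNP-HSA+SiO2 minus blank and -0.191, 0.727 and -0.0238 for DNP-HSA+SiO2 minus DNP-HSA, in the same order of sets, so that some signs differ from those of the summed share. No test was made over these pairs. For the median isoform the average range within a group was 6.47 points.

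The comparisons asked whether nano-silica, antigen or both altered the share of an isoform. The odds of the isoform against the rest of its gene were compared on the log2 scale in limma, after 0.1 FPKM was added to both, with p-values adjusted over 27452 isoforms. Of the 6918 isoforms 6877 were tested. For 9 the gene had no other isoform listed, and for 32 the gene was under 0.5 FPKM in some library. Without a block, no retained-intron isoform had a limma adjusted p under 0.05 in SiO2 against blank (0.00364% of all isoforms), DNP-HSA against blank (0.0328%), DNP-HSA+SiO2 against blank (0.0255%), DNP-HSA+SiO2 against DNP-HSA (0%), the interaction of both agents (0%) or any difference among the 4 groups (0.0146%). At an unadjusted p under 0.05 there were 158, 263, 325, 119, 124 and 165, in that order. These were 2.3%, 3.82%, 4.73%, 1.73%, 1.8% and 2.4% of those tested, beside 4.26%, 4.73%, 5.58%, 3.04%, 3.35% and 3.98% of all isoforms. The edgeR test of isoform use on estimated counts passed 8, 9, 6, 2 and 6 of them in the first 5, beside 0.566%, 0.504%, 0.515%, 0.362% and 0.585% of all isoforms. Without the 4 low libraries, and without the 4 unnumbered ones, limma passed none as well. With the library set as a block (the unnumbered libraries, the low ones and the remaining ones, an alternative added after the data were seen), limma passed 0, 0, 4, 0, 0 and 0 retained-intron isoforms for SiO2, DNP-HSA and DNP-HSA+SiO2 against blank, for DNP-HSA+SiO2 against DNP-HSA, for the interaction and for any difference among the groups, in that order, beside 0.0109%, 0.051%, 0.0838%, 0.00729%, 0% and 0.0401% of all isoforms. At an unadjusted p under 0.05 there were then 371, 619, 726, 254, 239 and 453, which is 5.39%, 9%, 10.6%, 3.69%, 3.48% and 6.59% of them, beside 6.9%, 8.39%, 9.78%, 4.83%, 5.15% and 7.32% of all isoforms. The median SE of a log2 odds difference was 0.67.

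**Figure D3:**
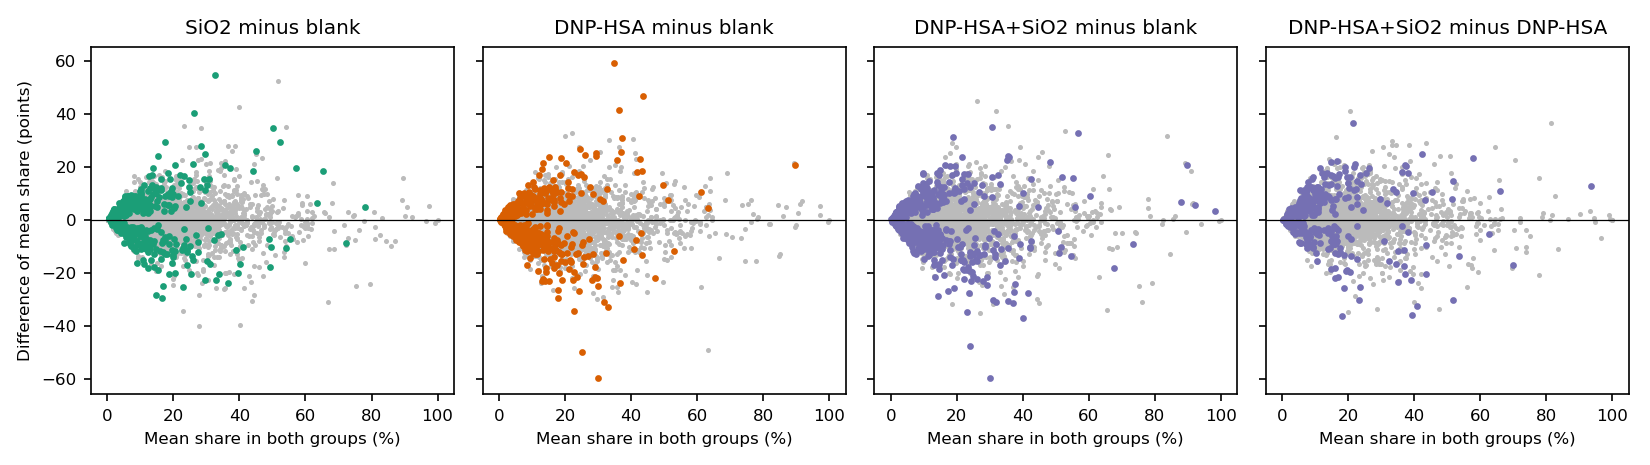
Difference of the mean share between groups in percentage points (vertical axis) against the mean share in percent (horizontal axis) for the 6877 retained-intron isoforms tested, with 1 panel for each of the 4 comparisons. Coloured points are isoforms whose libraries do not overlap between the groups, 210 higher and 196 lower for SiO2 against blank, and 83.1% of the isoforms in that panel differ by under 5 points.

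With SiO2, 5718 isoforms (83.1%) had a mean share within 5 points of blank, and the median difference was -0.0585 points. The libraries lay wholly above blank for 210 isoforms (3.05%, beside 4.13% of all isoforms) and wholly below for 196 (2.85%, beside 4.01%). The widest of these was Tnfaip2, a gene induced by TNF, at 6.4%, 2.57% and 6.71% in the blank group and 55.3%, 62.3% and 61.4% in the SiO2 group. The log2 odds of Tnfaip2 differed by 4.62 ± 1.46 (SE), with a limma adjusted p of 0.988. Adamts9, an extracellular protease, was at 11.1%, 2.82% and 4.37% against 57%, 38.9% and 43.2% (limma adjusted p = 0.769, the lowest of the 10 named for this comparison). With DNP-HSA+SiO2 it was at 53.7%, 38.9% and 7.35%, so that the combined group overlapped blank.

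Slc25a28, which carries iron into mitochondria, had 33% ± 3.34 (SD, n = 3) in the blank group against 67.5% ± 8.89 in the SiO2 group. Slc25a22, a mitochondrial glutamate carrier, had 2.75% ± 1.25 against 32% ± 21.5. Dbp, a circadian transcription factor, had 37.8% ± 29.96 against 67% ± 0.82. The 5 widest differences among the 196 on the lower side were these. Ppat, an enzyme of purine synthesis, had 31.2% ± 28.1 against 1.72% ± 2.98, at a mean of 0.654 FPKM in a gene at 4.55 FPKM. Mtmr1, a lipid phosphatase, had 28.8% ± 24.7 against 0.399% ± 0.259. Cep55, a protein of cell division, had 35.4% ± 15.8 against 10.1% ± 6.45, at a mean of 0.784 FPKM in a gene at 3.98 FPKM. Eif2a, a translation factor, had 29.3% ± 23.2 against 4.23% ± 3.96. Metrn had 48.5% ± 12.9 against 24.4% ± 10.02. In Ppat, Mtmr1, Dbp and Eif2a the SD of the blank libraries was over 20 points, so that their shares ranged widely without overlapping the SiO2 libraries.

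With DNP-HSA, the median difference from blank was -0.524 points, and 5531 isoforms (80.4%) lay within 5 points. The libraries lay wholly above blank for 207 isoforms (3.01%, beside 4.83% of all isoforms) and wholly below for 364 (5.29%, beside 4.67%). On the higher side Tnfaip2 had the widest difference here too, at 63.3%, 72.4% and 57.4% against the same blank libraries (limma adjusted p = 0.803). Zfp865, a zinc finger gene, was at 24.3%, 17.5% and 19% in the blank group and 59.7%, 63.4% and 78% in the DNP-HSA group. Apeh, a peptidase that removes acylated residues, was at 25.1%, 0.387% and 21.7% against 69.3%, 55% and 46.9%. Eif4g1, the scaffold of translation initiation, had 21.6% ± 13.7 against 52.5% ± 2.79. Ddhd1, a phospholipase, had 11% ± 5.57 against 37.7% ± 25.1.

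Among the 5 widest on the lower side was Cdc5l, a protein of the spliceosome, at 34.6%, 42.4% and 43.1% in the blank group and 1.5%, 4.69% and 10.1% in the DNP-HSA group (log2 odds -3.70 ± 1.05, limma adjusted p = 0.723). With both agents it was at 2.42%, 34.7% and 42.7%, from near the lowest to near the highest of all. Manf, a protein of endoplasmic reticulum stress, had 49.4% ± 9.43 against 16.3% ± 10.1. Colgalt1, a collagen galactosyltransferase, had 47.4% ± 6.95 against 16.3% ± 13.5. Pxn and Ercc3, also on this side, are described with their coding isoforms.

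With DNP-HSA+SiO2, the median difference from blank was -0.288 points, and 5419 isoforms (78.8%) lay within 5 points. The libraries lay wholly above blank for 290 isoforms (4.22%, beside 5.41% of all isoforms) and wholly below for 428 (6.22%, beside 5.27%). The lowest limma adjusted p of any retained-intron isoform belonged to Arih2, a ubiquitin ligase gene, whose isoform is a single exon of 3664 bases across the last intron of the coding isoform. It was at 2.75%, 3.66% and 3.65% in the blank group, 32.6%, 33.7% and 15.2% in the SiO2 group, 13.1%, 34.1% and 34% in the DNP-HSA group and 31.8%, 39.4% and 32.8% in the DNP-HSA+SiO2 group. All 9 treated libraries lay above the 3 blank libraries. How many of all isoforms do the same was not counted, here or for the isoforms below with all treated libraries on one side of blank. The log2 odds of Arih2 against blank were 3.25 ± 0.55, 3.20 ± 0.55 and 3.82 ± 0.55 (SE) for the 3 treatments, with limma adjusted p = 0.224, 0.125 and 0.0756. The edgeR test passed all 3, with adjusted p = 0.0406, 0.0383 and 0.0203, and the 3 comparisons share their blank libraries. Its coding isoform was at 58.4% to 64.5% in the blank group and 19.9% to 41% in the treated groups, while the whole gene was at 29.3 to 35.9 and 41.4 to 94.8 FPKM. With only isoforms of a mean of 5 FPKM or more in the fit, Arih2 passed limma for DNP-HSA+SiO2 (adjusted p = 0.0434).

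Rabgef1, an activator of Rab5 that restrains IgE receptor signaling, was at 10.3%, 4.62% and 13.9% in the blank group and 22%, 40.8% and 37.2% in the DNP-HSA+SiO2 group (log2 odds 2.25 ± 0.53, limma adjusted p = 0.507). It was also above blank in every SiO2 library (21.1%, 14.7% and 23.2%) and every DNP-HSA library (34.4%, 37% and 22%). Cpne1, a calcium-dependent membrane protein, had 13.2% ± 9.07 against 48.1% ± 22.2. Orc5, a subunit of the replication origin complex, had 40.6% ± 34.9 against 73.1% ± 9.57. Pak1ip1, an inhibitor of the kinase Pak1, had 23.6% ± 6.92 against 47.6% ± 13.3. Of the 428 on the lower side, the widest differences were those of Pxn and 4 others. Alpk1, a kinase that senses bacterial sugars, had 58.7% ± 20.5 against 21.6% ± 10.8, at a mean of 0.78 FPKM in a gene at 2.15 FPKM. Dclre1a, a nuclease of DNA crosslink repair, had 40.7% ± 8.62 against 5.8% ± 9.24, at a mean of 0.722 FPKM in a gene at 3.21 FPKM. Acp2, a lysosomal acid phosphatase, had 52.8% ± 5.78 against 21.4% ± 19. Pkmyt1, a kinase that holds back mitosis, was listed at 0 in all 3 combined libraries, at 12.7%, 69.6% and 61.1% in the blank group and at 76.3%, 30.8% and 1.86% in the DNP-HSA group. The DNP-HSA libraries alone covered the whole range of the blank libraries.

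Between DNP-HSA+SiO2 and DNP-HSA the median difference was 0.148 points, and 5790 isoforms (84.2%) lay within 5 points. The libraries with SiO2 lay wholly above for 225 isoforms (3.27%, beside 3.36% of all isoforms) and wholly below for 137 (1.99%, beside 3.11%). The limma adjusted p was 1 for each of the 10 named. Taf1b, a factor of RNA polymerase I, was at 4.59%, 6.95% and 5.26% in the DNP-HSA group and 43.9%, 18.5% and 20.9% in the DNP-HSA+SiO2 group. Pacs1, a membrane sorting protein, had 3.21% ± 1.31 against 39.6% ± 30.4. Tbc1d20, which switches off Rab GTPases, had 29.9% ± 6.22 against 54.8% ± 22.8. Cdt1, which licenses replication, had 46.2% ± 9.35 against 69.5% ± 6.48. Nudt22 had 3.76% ± 3.6 against 25.5% ± 16.1, at a mean of 0.655 FPKM in a gene at 4.19 FPKM. Of the 137 on the lower side, the widest differences, beside that of Pkmyt1, were these 4. Pms2, a mismatch repair protein, had 38.6% ± 22.6 against 8.12% ± 4.05, at a mean of 0.723 FPKM in a gene at 3.79 FPKM. Zfp865 had 67% ± 9.67 against 36.7% ± 26. Acp2 had 57.5% ± 5.54 against 21.4% ± 19. Apeh was at 20.8%, 25.4% and 27.2% in the DNP-HSA+SiO2 group, all below the DNP-HSA libraries given above.

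Several of the widest differences were exchanges with a coding isoform of nearly the same sequence. The Pxn isoform (paxillin, an adaptor of focal adhesions) has 95 bases outside a coding isoform, as many as the intron printed above, and lacks 40 bases of that isoform. Its share was 59.9%, 64.1% and 55.8% in the blank group, 0%, 0% and 60.7% in the SiO2 group, and 0% in all 6 libraries with antigen. That coding isoform was at 2.3%, 3.32% and 2.74% in the blank group, 73.6%, 76.4% and 2.95% in the SiO2 group, 67.9%, 35.1% and 77.2% in the DNP-HSA group and 34.3%, 63.7% and 66.5% in the DNP-HSA+SiO2 group. In each library one of both held nearly all of the pair, and their sum was 58.5% to 67.4% in the blank group and 34.3% to 77.2% in the treated groups. For Pxn the limma adjusted p was 0.314 for DNP-HSA and 0.447 for DNP-HSA+SiO2 against blank, and that of edgeR 4.61e-05 and 7.28e-05. SiO2 library 2 alone among the treated libraries was like blank. Of all libraries left out in turn, only its removal brought Pxn past limma for SiO2 against blank, and since that library is the one that differs in this value, the p is no test of SiO2. It was 0.00662, beside 0.988 with it.

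The isoform of Ercc3, a helicase of transcription factor TFIIH, has 127 bases outside its coding isoform. It was at 27.2%, 46.6% and 76.1% in the blank group, 44.8%, 49.6% and 52.3% in the SiO2 group, 0% in all 3 libraries in the DNP-HSA group and 74.8%, 48.5% and 0% in the DNP-HSA+SiO2 group. Both isoforms of Ercc3 together held 97% to 100% of the gene in every library, also where the retained-intron isoform was at 0. Of the libraries left out in turn, only the removal of DNP-HSA+SiO2 library 2, the one at 0, brought Ercc3 past limma between the groups with antigen, which shows that the call rests on that library and is no test of SiO2. The adjusted p was 0.00854, beside 1 with it. The Apeh isoform has 140 bases of its own, exactly the length of its intron, and its sum with the coding isoform was 58.7% to 77.4%. That coding isoform of Apeh was at 38.1%, 77% and 40.5% in the blank group and 6.02%, 10.3% and 28.7% in the DNP-HSA group.

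The Tnfaip2 isoform has 609 bases outside the closest isoform. In the DNP-HSA+SiO2 group it was at 27.9%, 62.8% and 0.627%, and the main coding isoform at 21.4%, 18% and 76.8%. In the blank group that coding isoform was at 82.2% to 92.2%, and in the SiO2 and DNP-HSA groups at 16.2% to 24.4%. DNP-HSA+SiO2 library 2 was thus like blank in this gene, although the whole gene was at 8.72 to 12.5 FPKM in the blank group and at 26.6 to 68.7 FPKM in the treated groups. Only without that library was the limma adjusted p of Tnfaip2 for any difference among the groups under 0.05 (0.0313), and it was the library that differs in this value.

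At 0 in at least 1 library were 233 of the 6918 isoforms, of which 129 reached 20% or more in another library. Of 128 of the latter with a known structure, 30 (23.4%) had under 100 bases outside the closest isoform, beside 17.4% of all. The average range within a group, divided by the mean share, had a median of 0.88 for isoforms with under 100 such bases, 0.836 for those with 500 or more and 0.895 for the 3406 between, and so followed no order. Over 50 points between the lowest and the highest library were found in 241 isoforms (3.48%).

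**Figure D4:**
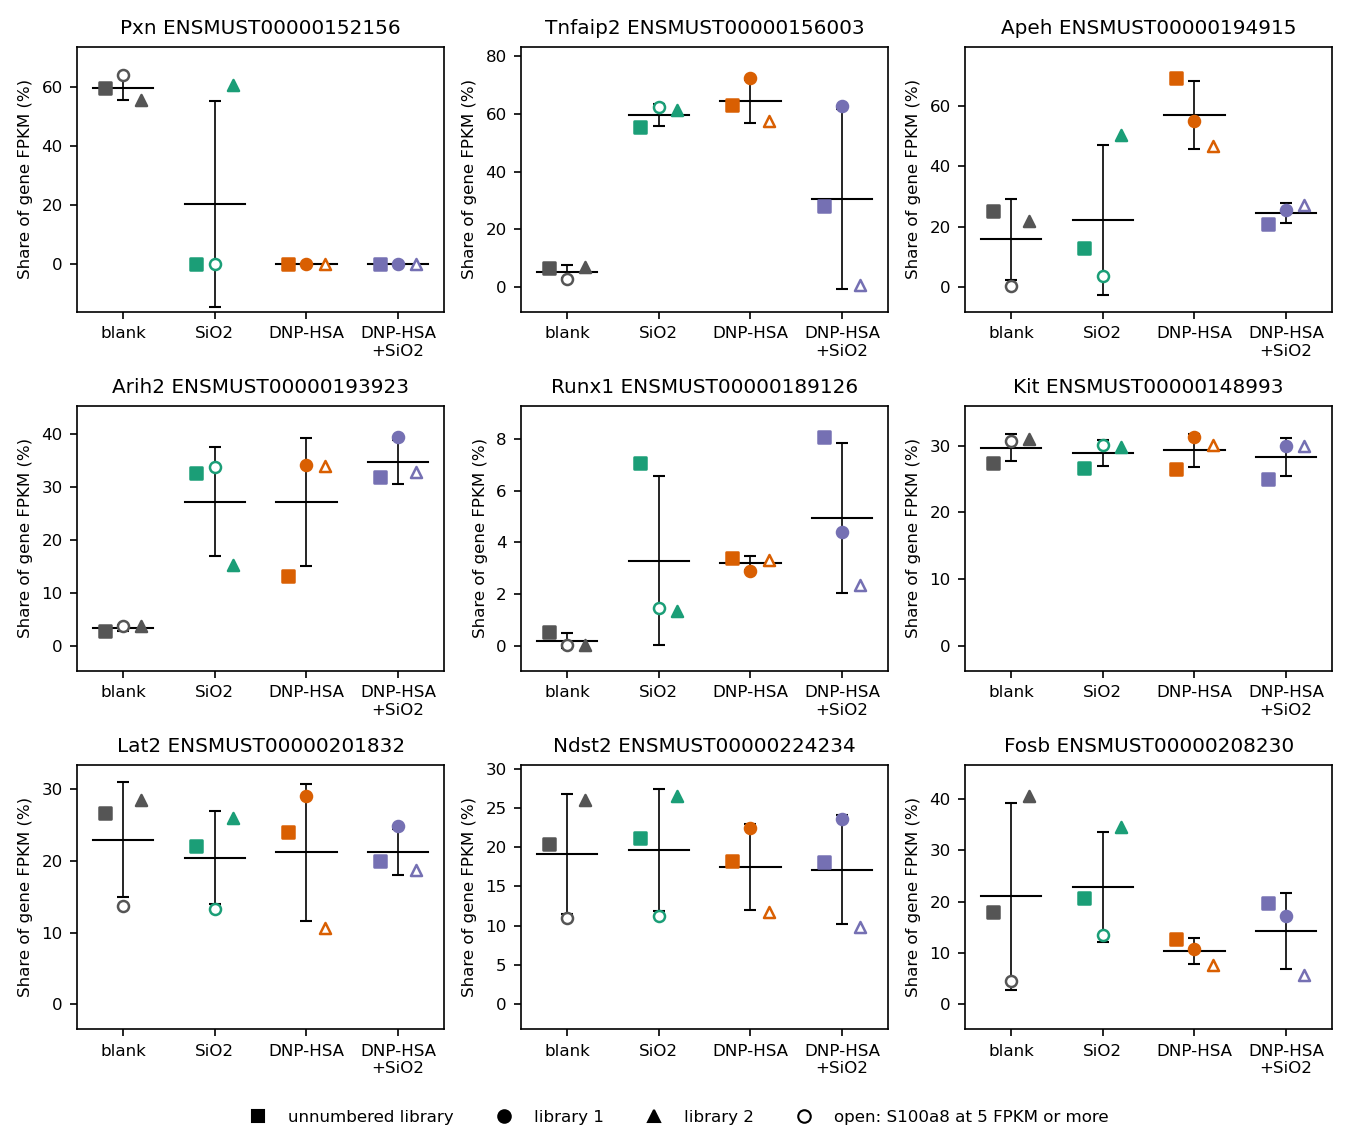
Share of gene FPKM in percent (vertical axis) of 9 retained-intron isoforms by group, 1 point per library, with the group mean and SD (n = 3); open points are the 4 libraries with S100a8 at 5 FPKM or more. Pxn lies at 55.8% to 64.1% or at 0%, Arih2 and Runx1 lie lowest in the blank group, Kit stays at 25% to 31.3%, and the open points of Lat2 and Ndst2 are the lowest of each group.

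The edgeR test passed 17 different isoforms, 2 to 9 of 6877 in each comparison, beside 0.362% to 0.585% of all isoforms. Of the 17, 12 were at 0 in at least 1 library. Runx1, a transcription factor of blood cells, was among the other 5 and was picked out after its values were seen. Its isoform has 1987 bases outside the closest one and was at 0.544%, 0.00935% and 0.0274% in the blank group, 7.07%, 1.45% and 1.33% in the SiO2 group, 3.38%, 2.88% and 3.3% in the DNP-HSA group and 8.07%, 4.4% and 2.35% in the DNP-HSA+SiO2 group. All 9 treated libraries lay above the 3 blank libraries, at small shares, and the number of all isoforms that do so was not counted. The limma adjusted p values of Runx1 against blank were 0.666, 0.32 and 0.27 for SiO2, DNP-HSA and both, and those of edgeR 0.02, 0.0186 and 0.00536. The whole gene was at 85.5 to 125 FPKM in the blank group and 79 to 124 FPKM in the treated groups. A second Arih2 isoform, also picked out after its values were seen, has 68 of its 650 bases outside the first one. It was at 0% to 0.11% in the blank group and 1.43% to 8.82% in the treated groups, and edgeR passed it in the same 3 comparisons.

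The 4 isoforms past limma with the library set as a block, all for DNP-HSA+SiO2 against blank, were those of Ndrg1, Slc7a5, Gch1 and Runx1, and the first 3 were picked out after their values were seen. That of Gch1, the first enzyme of tetrahydrobiopterin synthesis, was at 17.4%, 5.39% and 16.8% in the blank group, 38.5%, 10.8% and 35.2% in the SiO2 group, 40.4%, 33.1% and 12.3% in the DNP-HSA group and 45%, 39.9% and 15.3% in the DNP-HSA+SiO2 group. The low library of each group was its lowest, and within each set the DNP-HSA+SiO2 library lay above the blank one. The limma adjusted p of Gch1 was 0.0467 with the block and 0.909 without it, and the gene was at 26.6 to 32.4 FPKM in the blank group and 75.5 to 376 FPKM in the treated groups. That of Ndrg1, a gene induced by stress and differentiation, was at 1.67%, 0.498% and 1.21% in the blank group, 9.12%, 1.81% and 4.31% in the SiO2 group, 9.61%, 6.6% and 2.1% in the DNP-HSA group and 10.01%, 8.07% and 5.17% in the DNP-HSA+SiO2 group, with adjusted p = 0.0301 with the block and 0.57 without it in limma. That of Slc7a5, a transporter of large neutral amino acids, was at 0.463%, 0.176% and 0.543% in the blank group, 1.9%, 0.899% and 1.74% in the SiO2 group, 2.62%, 2.19% and 0.765% in the DNP-HSA group and 2.42%, 2.7% and 0.867% in the DNP-HSA+SiO2 group, with limma adjusted p = 0.0467 with the block and 0.624 without it. In Ndrg1 and Slc7a5 all 9 treated libraries lay above the 3 blank libraries, which the treated groups share. The number of all isoforms with this pattern was not counted. For Runx1 the limma adjusted p was 0.045 with the block.

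In none of 16 gene lists did a member pass limma without a block in any comparison. SR proteins and Tra2 factors, which mark exons for splicing, had 26 isoforms in 10 genes with a median share of 11.6%, beside 7.63% over all. The libraries of none of the 26 were wholly above or below in the 4 comparisons, beside 3.11% to 5.41% of all isoforms in any one comparison and direction. Srsf5 was at 26.9%, 11.7% and 6.31% in the blank group and 22.2%, 13% and 13.4% in the DNP-HSA+SiO2 group. Srsf2 was at 21.9%, 13% and 23.9% and 12.8%, 15.1% and 9.61%, Srsf6 at 8.75% to 29.4% over all libraries, Srsf3 at 4.31% to 25.5%, and 2 isoforms of Srsf11 at 8.98% to 24.2% and 8.4% to 18.9%. Blank, SiO2 and antigen libraries overlapped in each.

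The kinases that phosphorylate SR proteins had 24 isoforms in 8 genes (median 5.58%). Srpk1 was at 60.9%, 39.6% and 46.4% in the blank group, 53.5%, 33.2% and 51.4% in the SiO2 group, 54.3%, 48% and 18.1% in the DNP-HSA group and 54.1%, 10.4% and 29.9% in the DNP-HSA+SiO2 group. The isoform of Clk1 that holds 3 introns, with the 87-base intron among them, was at 7.37%, 4.97% and 5.67% in the blank group, 4.6%, 6.34% and 5.93% in the SiO2 group, 10.6%, 5.57% and 8.75% in the DNP-HSA group and 6.27%, 9.29% and 5.98% in the DNP-HSA+SiO2 group. A second isoform of Clk1 was at 9.52% to 24.1%, and those of Clk2 and Clk4 at 12.4% to 48% and 4.27% to 14.3%. Clk3 was at 22.5%, 15% and 14.1% in the blank group and 12.1%, 8.17% and 13.9% in the DNP-HSA group. These libraries were apart only narrowly (14.1% against 13.9%), with a log2 odds difference of -0.68 ± 0.51 (SE) in limma. At 8.5%, 11% and 17.7% with SiO2 and 27.8%, 16.9% and 10.9% with both agents, Clk3 overlapped blank. Of the 23 kinase isoforms tested, 2 lay wholly below and 0 wholly above blank with DNP-HSA, beside 4.67% and 4.83% of all isoforms.

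HnRNP proteins, many of which repress exons, had 46 isoforms in 13 genes with a median of 3.07%. Hnrnpl was at 21.7% to 36.5% and 7.83% to 21.2% for 2 isoforms, Hnrnpa2b1 at 6.36% to 15.9% and 4.03% to 10.6%, Hnrnpk at 5.55% to 22.7% and Ptbp1 at 2.66% to 44.6%. Spliceosome and SR-related proteins had 87 isoforms in 32 genes (median 5.01%). Of these 87, 1 lay wholly above and 7 wholly below blank with DNP-HSA (beside 4.83% and 4.67% of all isoforms), and 7 above and 0 below DNP-HSA with both agents (beside 3.36% and 3.11%). The counts were 3 above and 7 below blank with both agents (beside 5.41% and 5.27% of all isoforms). With SiO2 they were 2 above and 5 below (beside 4.13% and 4.01%). These comparisons share libraries. Ddx39b, a helicase of splicing and export, was at 45% to 64.2%, Srrm2, a scaffold of nuclear speckles, at 32.2% to 44.3%, Snrnp70, a protein of the U1 particle, at 22.4% to 34.8%, Srrm1 at 18% to 31.3% and Luc7l2 at 20.2% to 38.4% and 15.1% to 32.2%. Their groups overlapped.

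Introns that are regulated in other systems had 32 isoforms in 8 genes (median 4.4%). Ogt, the enzyme that adds O-GlcNAc, had one at 20.9% to 28.2%. Paraspeckle and speckle genes had 14 isoforms in 4 genes (median 2.92%), with Tardbp at 2.16% to 22.6%.

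Genes of nonsense-mediated decay had 18 isoforms in 7 genes (median 6.47%). Smg9 was at 28.1% to 43.4% in its main isoform. Rnps1, a protein of the exon junction complex, was at 26.6%, 23.2% and 34.8% in the blank group, 5.78%, 2.98% and 25.2% in the SiO2 group, 16.1%, 5.34% and 2.75% in the DNP-HSA group and 20.5%, 25.7% and 18.5% in the DNP-HSA+SiO2 group. Its DNP-HSA libraries lay below both the blank and the DNP-HSA+SiO2 libraries, with limma adjusted p = 0.902 against blank. End formation and export genes had 29 isoforms in 15 genes (median 4.78%), with Cstf3, a cleavage factor, at 14.6% to 33.9%, Cpsf1 at 5.56% to 27.6%, and 4 isoforms of the poly(A)-binding protein Pabpc1 between 0.301% and 4.24%.

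Genes of IgE receptor signaling had 20 isoforms in 13 genes of 34 (median 4.17%). Lat2, an adaptor that is phosphorylated after receptor engagement, had the isoform with the 267-base intron at 26.6%, 13.8% and 28.5% in the blank group, 22%, 13.3% and 26% in the SiO2 group, 24%, 29.1% and 10.6% in the DNP-HSA group and 20.04%, 24.8% and 18.8% in the DNP-HSA+SiO2 group. The low library of each group was the lowest here, and the groups overlapped. Btk, a kinase of this pathway, was at 7.75% to 15.5% in those 4 libraries and 19.1% to 40.7% in the other 8. A second Lat2 isoform was at 6.13% to 16.9%, Fcer1g, the signaling chain of the receptor, at 0.951% to 4.62% and Plcg1 at 3.2% to 14%. Lat, the related adaptor, had an isoform that holds 7 introns at 6.4%, 3.6% and 9.48% in the blank group and 2.04%, 3.47% and 2.07% in the DNP-HSA+SiO2 group, without overlap. Of the 20 isoforms, 4 lay wholly below and 1 wholly above blank in that group (beside 5.27% and 5.41% of all isoforms). Below and above blank were 1 and 0 with SiO2 (beside 4.01% and 4.13% of all isoforms) and 2 and 0 with DNP-HSA (beside 4.67% and 4.83%). None separated both groups with antigen (beside 3.36% of all isoforms above and 3.11% below).

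Mast cell granule and identity genes had 14 isoforms in 6 genes (median 3.57%). Ndst2, which sulfates heparin, was at 20.5%, 11% and 26.1% in the blank group, 21.2%, 11.2% and 26.5% in the SiO2 group, 18.3%, 22.5% and 11.7% in the DNP-HSA group and 18.1%, 23.6% and 9.79% in the DNP-HSA+SiO2 group. Slc18a2, the transporter that loads amines into granules, had an isoform that holds 5 introns at 6.87% to 11.7% in the 4 low libraries and 14.9% to 26.8% in the other 8. The main isoform of Tph1, the first enzyme of serotonin synthesis, was at 3.08% to 6.53% and 6.18% to 11.9%. Kit did not follow this order.

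The immediate early transcription factors, made within minutes of stimulation, had 7 isoforms in 6 genes (median 2.72%), with a median log2 odds difference from blank of -0.168, -1.15 and -1.17 for SiO2, DNP-HSA and both, beside 0.002, -0.135 and -0.047 over all retained-intron isoforms. Egr3 was at 4.41%, 3.87% and 11.9% in the blank group, 1.33%, 0.734% and 3.27% in the SiO2 group, 1.37%, 1.18% and 0.543% in the DNP-HSA group and 1.86%, 1.33% and 0.867% in the DNP-HSA+SiO2 group. Every treated library of Egr3 lay below every blank library, a pattern not counted over all isoforms. The gene was at 9.14 to 22.7 FPKM in the blank group and 410.3 to 1724 FPKM in the treated groups. Its log2 odds differed from blank by -2.23 ± 0.64, -2.87 ± 0.64 and -2.44 ± 0.64 (SE), with limma adjusted p = 0.906, 0.39 and 0.57.

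Fosb was at 17.9%, 4.62% and 40.6% in the blank group, 20.7%, 13.5% and 34.4% in the SiO2 group, 12.6%, 10.7% and 7.61% in the DNP-HSA group and 19.7%, 17.2% and 5.78% in the DNP-HSA+SiO2 group, and the gene at 14.6 to 103 FPKM in the blank group and 1419 to 1851 FPKM in the DNP-HSA group. Nr4a1, a nuclear receptor gene, was at 10.5%, 0.0308% and 32.1% in the blank group and 2.85%, 0.618% and 1.58% in the DNP-HSA group. In the SiO2 group Nr4a1 was at 13.6%, 3.35% and 16.4%. Blank 1 was the lowest blank library of both genes and the blank libraries overlapped each treated group. The DNP-HSA libraries of both genes lay below all SiO2 libraries, but narrowly (12.6% against 13.5% for Fosb and 2.85% against 3.35% for Nr4a1). That comparison was not tested, was picked out after the values were seen, and was not counted over all isoforms. Klf6 was at 0.902% to 3.92%, Fosl2 at 0.924% to 4.7% and Srf at 1.6% to 10.4%.

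The MAP kinase list had 31 isoforms in 13 genes (median 6.9%). Dusp1, the phosphatase that switches MAP kinases off, was at 57.5%, 0.378% and 56.2% in the blank group, 59.2%, 51.9% and 46.7% in the SiO2 group, 19%, 54.4% and 12.9% in the DNP-HSA group and 59.4%, 25.6% and 18% in the DNP-HSA+SiO2 group. Blank 1 stood far below the other 11 libraries. Map2k3, Mapk14 and Araf, kinases of the cascade, were at 3.62% to 20.2%, 5.11% to 27.6% and 12.7% to 30.6%. The NF-kB list had 24 isoforms in 11 genes (median 6.73%), with Nfkb1 at 18.1% to 53.2% and the inhibitor Nfkbie at 51.3% to 89%. Tnfaip3 (A20), which ends NF-kB signaling, was at 55.5%, 1.11% and 53.3% in the blank group and 29.5% to 50.6% in the treated groups. Nfkbid was at 4.3%, 0% and 0.539% in the blank group and 8.21%, 7.15% and 10.7% in the SiO2 group, without overlap (limma adjusted p = 1). Malt1, a protease of this pathway, was the only gene of the 16 lists with an isoform past edgeR, and was picked out after its values were seen. It was at 0% to 4.25e-05% in the blank group, 1.11%, 0% and 3.49% in the SiO2 group, 5.55%, 0.124% and 0.621% in the DNP-HSA group and 2.13%, 0.953% and 0.288% in the DNP-HSA+SiO2 group. Against blank, edgeR gave Malt1 adjusted p = 0.0111, 0.012 and 0.0124, and limma 1, 1 and 0.956, and 3 libraries were at 0.

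Cytokines and growth factors had 9 isoforms in 5 genes (median 5.33%). Vegfa, a factor of vessel growth, had 2. The more abundant was at 5.14%, 0.865% and 4.29% in the blank group, 12.7%, 5.27% and 12.6% in the SiO2 group, 8.12%, 5.3% and 3.04% in the DNP-HSA group and 8.42%, 8.67% and 3.78% in the DNP-HSA+SiO2 group, with the SiO2 libraries wholly above blank (limma adjusted p = 1). The other Vegfa isoform was at 15.2%, 21% and 15.9% in the blank group, 2.83%, 8.64% and 7.13% in the SiO2 group, 3.39%, 5.76% and 3.8% in the DNP-HSA group and 1.28%, 2.47% and 3.81% in the DNP-HSA+SiO2 group. All 9 treated libraries of this second one lay below the blank libraries, with log2 odds of -1.78 ± 0.58, -2.15 ± 0.58 and -3.02 ± 0.58 (SE) and limma adjusted p = 0.988, 0.642 and 0.287. The number of all isoforms with every treated library on one side of blank was not counted. Tgfb1 had one at 1.05%, 0.316% and 2.1% in the blank group, 15.1%, 3.03% and 5.94% in the SiO2 group, 2.79%, 3.15% and 4.5% in the DNP-HSA group and 14.3%, 5.82% and 2.2% in the DNP-HSA+SiO2 group, with all 9 above blank and limma adjusted p = 0.911, 1 and 0.7. Ccl2, a chemokine for monocytes, was at 19.6%, 7.62% and 27.8% in the blank group, 9.96%, 6.91% and 12.7% in the SiO2 group, 8%, 6.62% and 4.43% in the DNP-HSA group and 8.93%, 6.81% and 5.45% in the DNP-HSA+SiO2 group, where the groups overlapped.

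Heat shock and oxidative stress genes had 33 isoforms in 18 genes and the lowest median of the 16 lists, 2.1%. Hspa8 was at 0.269% to 12.9%, Hsp90ab1 at 0.217% to 8.53% and the autophagy receptor Sqstm1 at 0.246% to 3.77% and 0.511% to 3.31%. Txnrd1, a reductase of the antioxidant response, was at 3.06%, 3.1% and 2.52% in the blank group and 12%, 12.3% and 6.3% in the DNP-HSA+SiO2 group, without overlap (limma adjusted p = 0.869). Genes of the stress response and tRNA synthetases had 30 isoforms in 14 genes (median 6.19%), with Atf4 at 9.12% to 21.3%, Nars at 5.25% to 36.3% and Farsa at 15.7% to 38.7%. Qars, the glutaminyl-tRNA synthetase, was at 31%, 27.9% and 24.7% in the blank group, 31.2%, 35.8% and 38% in the DNP-HSA group and 27.1%, 24% and 29.4% in the DNP-HSA+SiO2 group. Its DNP-HSA libraries lay above both others, but above blank only narrowly (31.2% against 31%). Of the 30 isoforms, 1 lay wholly above and 0 wholly below blank with DNP-HSA, beside 4.83% and 4.67% of all isoforms. With both agents, 2 lay above and 1 below DNP-HSA, beside 3.36% and 3.11%.

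At the edge of the rule, the third highest FPKM of an isoform was 1.0002 in Atad2, 1.0005 in Proser1 and 1.0008 in Fastkd2, just inside, and 0.9997 in Bap1, 0.9996 in Aup1 and 0.9990 in Ankle1, just outside. Their mean shares were 4.95%, 10.3% and 15.3% inside and 4.11%, 0.905% and 45% outside.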

How the data were processed

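The authors sequenced polyadenylated, dUTP-stranded libraries of 12 BMMC samples as 150-base paired reads and deposited a table of isoforms with FPKM and estimated counts in each library. Tools listed without a role in the submitters' processing notes are StringTie 1.3.4d, HISAT2 2.0.4, cutadapt 1.9, edgeR and DESeq2. Their genome build was not given in the sources used here. By position, 84070 isoforms had the same start and end in GENCODE M21 (GRCm38). Deposited FPKM values gave the shares. Of the tests, only that of edgeR used the deposited estimated counts, 55737606 to 76718065 per library. The assignment of fragments to isoforms enters both units.

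The isoforms and gene lists were chosen with earlier results of these data known. Tested were isoforms that met the FPKM rule, whose gene had at least 2 isoforms and 0.5 FPKM or more in every library (27452). limma 3.58.1 (R 4.3.3; lmFit and eBayes with trend and robust) was fitted to all 12 libraries on log2 odds with 0.1 FPKM added, with Benjamini-Hochberg adjustment and a threshold of 0.05. diffSpliceDGE of edgeR 4.0.16 was an alternative, beside those of the closing section. The tests were checked on simulated data. Tables were handled in Python 3.11.15 with pandas 2.3.3.

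Isoforms were named by rule: per comparison, the 5 widest differences in each direction without overlap of libraries; the 10 highest and 5 lowest mean shares; the 10 highest mean FPKM; up to 6 per gene list by FPKM; and 3 on each side of the FPKM minimum. The text says where an isoform outside this rule was chosen after its values were seen. A few items that the rule names are not reported here. Same-numbered libraries deviated together between blank and SiO2 (correlations of deviations from group means 0.144, 0.244 and 0.272) and between DNP-HSA and DNP-HSA+SiO2 (0.156, 0.183 and 0.124). Between blank and DNP-HSA the unnumbered libraries did so (0.202), while libraries 1 and 2 did not (-0.154 and -0.113). There, blank 1 deviated with DNP-HSA 2 (0.239) and blank 2 with DNP-HSA 1 (0.203), and no label names a shared batch.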

Additional observations from a re-analysis of the deposited data

Results flagged for a closer look

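In 7 retained-intron isoforms, every SiO2 library lay on one side of blank while every DNP-HSA+SiO2 library lay on the other side of DNP-HSA. These were 0.102% of the isoforms tested, beside 86 of all types (0.313%). The interaction of both agents, as the difference of log2 odds with DNP-HSA minus that without, had a limma adjusted p of 1 in each (unadjusted 0.00549 to 0.052). In Ifrd2 it was -4.18, with mean shares of 13.7%, 30.5%, 31.8% and 5.91% in the blank, SiO2, DNP-HSA and DNP-HSA+SiO2 groups. It was 1.47 in Mdm4, an inhibitor of p53, with 5.06%, 3.64%, 3.27% and 6.76%. In Med24, a subunit of Mediator, it was -1.27, with 10.9%, 13.6%, 10.3% and 5.27%. In Nedd4, a ubiquitin ligase, it was 2.30, with 9.89%, 3.5%, 5.06% and 8.67%. It was 2.42 in Scamp3, a membrane carrier protein, with 5.08%, 1.95%, 0.974% and 2.28%. In Tle5, a corepressor, it was -1.36, with 14.1%, 19.9%, 19.1% and 12.5%. In Xrcc1, a scaffold of DNA repair, it was 2.38, with 7.96%, 3.36%, 1.49% and 3.59%.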

How the results depend on the processing

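The count of 0 isoforms past limma kept its value in 109 of the 128 alternatives over 6 comparisons. edgeR on estimated counts passed 8 for SiO2, 9 for DNP-HSA and 6 for DNP-HSA+SiO2 against blank, 2 for DNP-HSA+SiO2 against DNP-HSA and 6 for the interaction. With 1 FPKM added, limma passed 3 for DNP-HSA (Egr3, Cd69 and ENSMUST00000202169 of Fosl2, not the Fosl2 isoform given above), 1 for DNP-HSA+SiO2 and 1 for any difference (both that of Fosl2). Their genes were at 8.12 to 39.3 FPKM in the blank group and 74.2 to 1656 FPKM in the DNP-HSA group. The added 1 FPKM thus weighs more in blank, and these calls do not rest on the share alone. Shares of this Fosl2 isoform overlapped, at 1.42%, 0.556% and 2.64% in blank and 0.976%, 0.403% and 0.438% in DNP-HSA. Those of Cd69 overlapped too, while those of Egr3 did not. With 0.01 FPKM added, limma passed 1 for DNP-HSA+SiO2, the second Arih2 isoform (adjusted p = 0.0453), and with a mean of 5 FPKM or more 1, the first. Leaving out 1 library gave 0 to 1 for SiO2, DNP-HSA and DNP-HSA+SiO2 against blank and for DNP-HSA+SiO2 against DNP-HSA, and 0 to 2 for any difference. Smarca5 passed the 3 comparisons with blank and any difference without the unnumbered blank library, Pxn passed SiO2 and, with Arih2, any difference without SiO2 2, and Ercc3 passed DNP-HSA+SiO2 against DNP-HSA and, with Tnfaip2, any difference without DNP-HSA+SiO2 2. Fits with the replicate number as a block passed 0; over all 12 libraries this block does not join the low libraries, numbered 1 in the blank and SiO2 groups and 2 in the others. A block by library set, chosen after seeing the data, passed 4 for DNP-HSA+SiO2 against blank and 0 otherwise. None passed in fits without the unnumbered libraries or, also chosen after seeing the data, without the 4 libraries with S100a8 at 5 FPKM or more. Of the named isoforms' values under the alternatives, 670 kept their side of the threshold, 6 came past it and none turned. Fosl2, Cd69 and Smarca5 were chosen after their values were seen. The median SE of 0.67 on the log2 odds scale and the 3 libraries a group limit what could be told apart.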
